A study of Homo sapiens with 18 samples.

Results

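The genes described here are 58 genes spread in order along the long arm of chromosome 15 (15q), of 54425 genes counted in all. They were chosen by symbol, with earlier results of these data known, to show where on the arm cells that express both t(4;11) fusion genes gain counts on day 3 and day 28. The comparisons of those cells with cells that carry a single fusion were used in the choice, so they are given as a description with no test. Another 1046 genes of chromosome 15 served for comparison.

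The assay was ATAC-seq, whose reads come from DNA that a transposase could enter, and each of 18 libraries has a read count for every gene. All were made from HEK293T, a transformed line that grew out of human embryonic kidney. They form 6 groups of 3: inducible MLL-AF4, inducible AF4-MLL, and constitutive MLL-AF4 plus inducible AF4-MLL (co-expression), each on day 3 and day 28, with doxycycline at 1 µg/ml for 48 h as the inducer. MLL-AF4 and AF4-MLL are the reciprocal fusion proteins of the translocation t(4;11), found in acute leukaemia. As the study's methods describe, the fusion genes were cloned into Sleeping Beauty vectors, and the co-expression cells came from a stable, drug-selected MLL-AF4 line that was then transiently transfected with AF4-MLL, whose induction ended on day 3. No mock libraries were used here, and the origin of the co-expression line cannot be told apart from the presence of both fusions. The number of copies of a locus and its openness both raise an ATAC-seq count, and they cannot be told apart in these counts.

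Chromosome 15 is acrocentric, so nearly all of its genes lie on the long arm. The part next to the centromere holds the imprinted region of 15q11-q13, where some genes are used only from the copy of one parent, and clusters of repeated sequence. Genes for mitosis, DNA synthesis, cytoskeleton, growth factor signalling and metabolism follow towards the telomere.

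The libraries held between 442159 and 3539937 counts (median 1254820), of which 249479 to 772286 fell on nuclear genes with a chromosome. Chromosome 15 took 3.05 to 3.91% of those nuclear counts. The kidney-line transcription factor gene PAX2 averaged 16.5 CPM (counts scaled to 1000000 per library) and the blood cell gene SPI1 averaged 19.4 CPM, so these gene counts did not separate kidney from blood cell genes. Of 5 kidney-line genes and 6 blood cell genes 4 each were tested, and SALL1, CD3E and GATA1 had too few counts. The mean of the 4 co-expression differences had a median of -0.10 over the tested kidney-line genes and -0.15 over the tested blood cell genes, of which edgeR called 0 and 1 (lower) in any comparison.

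Promoter windows from RefSeq (GRCh38.p14, 250 bases before to 50 after the annotated start) were found for 54 of the 58 members. These 3 are shown because the results turn on these genes. HERC1 and MAP2K1 are the neighbouring members on either side of the step described below, and B2M is among the members with the largest gain. Capitals mark matches to GGGCGG, the GC box read on both strands.
B2M, chr15:44711267-44711566, plus strand: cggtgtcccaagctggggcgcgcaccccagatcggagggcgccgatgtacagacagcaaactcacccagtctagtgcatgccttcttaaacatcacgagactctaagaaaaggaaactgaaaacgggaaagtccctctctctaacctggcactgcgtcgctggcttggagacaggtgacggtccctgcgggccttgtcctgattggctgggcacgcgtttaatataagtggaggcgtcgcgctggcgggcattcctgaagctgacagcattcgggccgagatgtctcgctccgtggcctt
HERC1, chr15:63833899-63834198, minus strand: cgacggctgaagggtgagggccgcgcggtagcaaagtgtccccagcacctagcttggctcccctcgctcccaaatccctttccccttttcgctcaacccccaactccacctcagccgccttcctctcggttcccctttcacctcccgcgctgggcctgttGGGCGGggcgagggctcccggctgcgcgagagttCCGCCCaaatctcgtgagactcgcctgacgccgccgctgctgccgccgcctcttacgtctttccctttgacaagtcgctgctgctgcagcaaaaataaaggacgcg
MAP2K1, chr15:66386662-66386961, plus strand: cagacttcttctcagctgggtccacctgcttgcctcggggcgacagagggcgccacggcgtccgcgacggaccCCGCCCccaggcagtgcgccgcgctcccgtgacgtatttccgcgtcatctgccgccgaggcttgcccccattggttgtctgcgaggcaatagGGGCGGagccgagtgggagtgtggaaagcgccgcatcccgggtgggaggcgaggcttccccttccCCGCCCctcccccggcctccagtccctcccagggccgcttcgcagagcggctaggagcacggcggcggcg

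The GC box occurred in 22 of 32 promoters of members before the step (68.8%) and in 18 of 22 after it (81.8%), against 45% of all 35116 promoters and 47.6% of all 1225 chromosome 15 promoters. The median GC content was 68.3% before the step and 69% after it, with a median of 28.5 and 31.5 CG pairs per window. All promoters had a median of 58.7% and 14 CG pairs. The members on both sides thus had GC-rich promoters, and a match to these letters is a description of the window, not a site.

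Co-expression cells had more counts than either single-fusion setting over the centromeric stretch of 15q, and the gain dropped to a small one near 65 Mb. When the counts of all co-expression libraries were set against those of all single-fusion libraries along the arm, the best single step lay after CLPX (ends at 65185342) and before CILP (starts at 65194760). It left 602 genes before it and 502 after it, and the ratio of co-expression to single-fusion counts was 1.41 times higher before than after. Each of the 6 co-expression libraries, set against the single-fusion libraries of its day, placed the step between genes that start at 65.05 and 65.29 Mb, with ratios of 1.39 to 1.49. The step thus had nearly the same place in every co-expression library on both days. The libraries of a day were set against the same single-fusion counts, so these places are not independent. The step was also fitted to the comparisons that chose the members, and is a description. By position, 35 members lie before it, from UBE3A to HERC1, and 23 after it, from MAP2K1 to MEF2A.

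THBS1 (thrombospondin 1, mean of 7.39 counts) and CYP19A1 (aromatase, mean of 5.44 counts) had too few counts for the fit across all genes. The other 56 members were fitted, 33 before the step and 23 after it. One of them, ONECUT1, passed the filter on low counts only through the co-expression libraries.

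In the 33 fitted members before the step, the mean of the 4 log2 differences (co-expression against MLL-AF4 and against AF4-MLL, on each day) had a median of 0.58, a fold of 1.5. In the 23 members after the step it had a median of 0.05, a fold of 1.04. The median over all 17660 genes fitted was 0.01. The other chromosome 15 genes showed the same 2 levels, with 0.62 over 229 genes before the step and 0.10 over 264 after it.

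All 4 differences were above 0 in 28 of 33 members before the step (84.8%) and in 4 of 23 after it (17.4%), against 16.2% of all genes fitted. The 4 members after the step were SIN3A, NTRK3, BLM and CHD2. The 5 members before the step that lacked this pattern were OTUD7A, FMN1, MYO5A, WDR72 and VPS13C. For the other genes of chromosome 15 the corresponding shares were 88.6% before and 28.8% after the step.

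**Figure D1:**
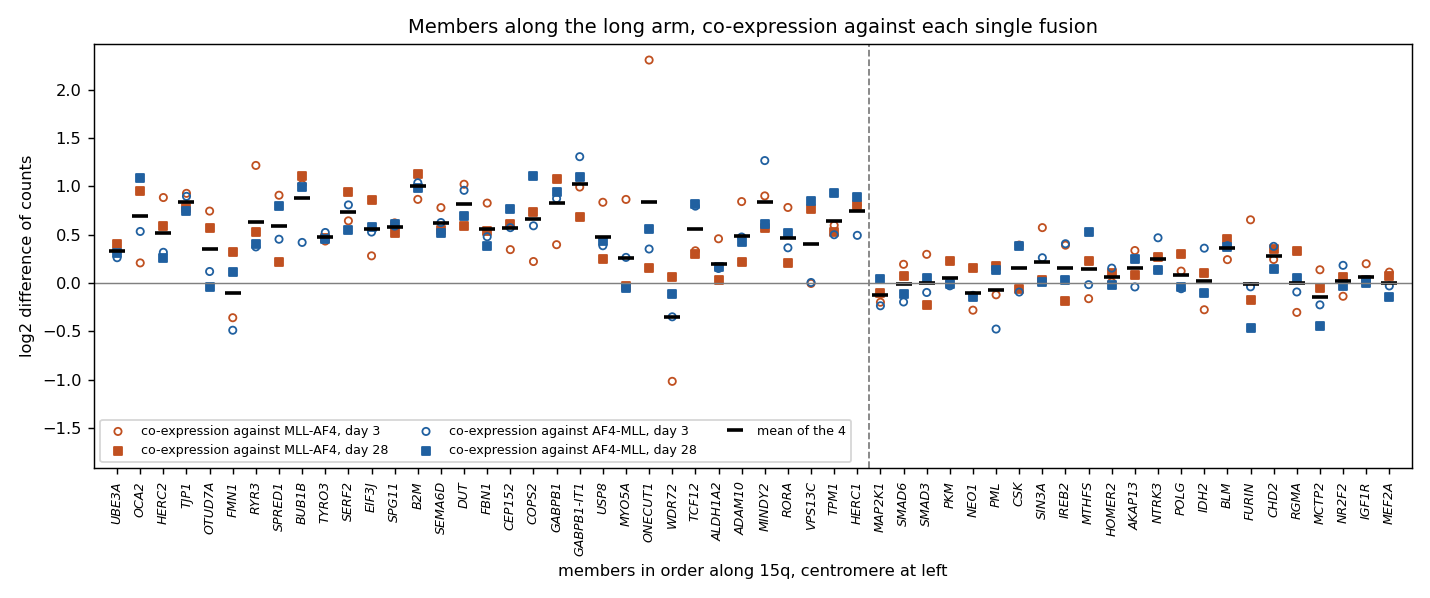
Log2 difference of counts (vertical axis) for the 56 fitted members in order along 15q, with the 4 co-expression comparisons as symbols and their mean as a black bar. Left of the dashed line, which marks the step, the means have a median of 0.58, and right of it 0.05.

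The groups were then compared library by library. All 3 co-expression libraries lay above all 3 MLL-AF4 libraries in 23 of the 56 members on day 3, against 9.94% of all genes fitted, and in 20 on day 28, against 7.75%. Against AF4-MLL the counts were 17 on day 3, beside 8.34%, and 24 on day 28, beside 8.4%. Of these, 20, 18, 14 and 21 members, in the same order, lay before the step. The quasi-likelihood test of edgeR called 10 and 4 members higher than in MLL-AF4 on day 3 and day 28, where it called 0.9% and 0.413% of all genes higher. Against AF4-MLL it called 6 and 13 members higher, where it called 0.481% and 0.702% of all genes higher. In either direction it called 1.81, 1.17, 1.28 and 1.69% of all genes in these 4 comparisons, and no member was called lower. Because these comparisons chose the members, nothing is read from these counts.

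Windows of 5 Mb, which sum all nuclear genes and so have a smaller error than a single gene, traced the shape of the gain. In all 4 comparisons 9 of the 18 windows of chromosome 15 were over 0.25 on the log2 scale, and none of the 583 windows of the other chromosomes was, so that the share over all windows was 1.5%. These were the 9 windows from 20 to 65 Mb. The first window, from 15 to 20 Mb, held on average 0.333 counts per library and is left out of what follows.

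Against MLL-AF4 the 9 windows before 65 Mb lay between 0.55 and 0.80 on day 3, with a median of 0.72, and between 0.42 and 0.61 on day 28, with a median of 0.48. Against AF4-MLL they lay between 0.41 and 0.62 on day 3 (median 0.58) and between 0.47 and 0.70 on day 28 (median 0.62). The stretch was thus a plateau with no gap, and it began at the first window with counts. From 65 Mb on, the 8 windows had medians of 0.16 and 0.13 against MLL-AF4, and 0.08 and 0.09 against AF4-MLL. The window from 65 to 70 Mb, which directly follows the step, stood at 0.33 ± 0.04 (SE) against MLL-AF4 on day 3 and at 0.12 ± 0.03 against AF4-MLL on the same day.

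**Figure D2:**
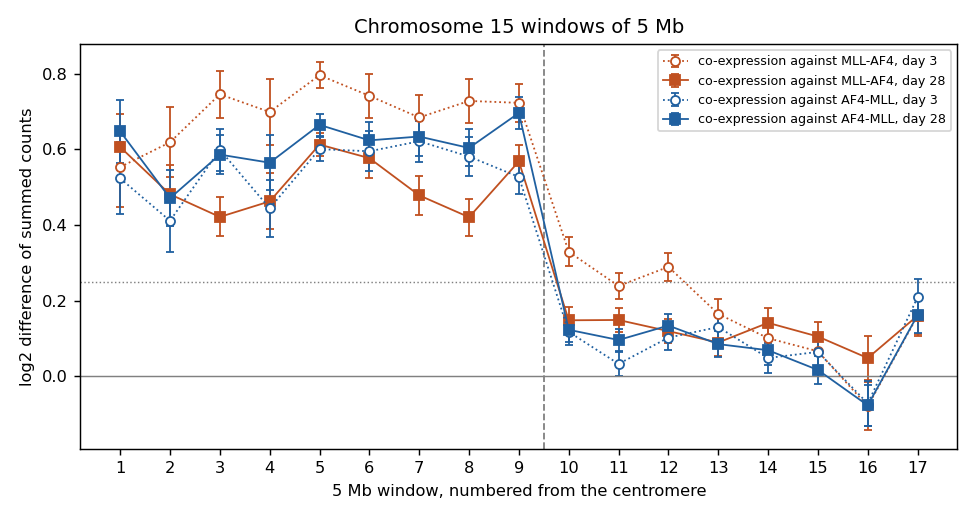
Log2 difference of summed counts with its standard error for 17 windows of 5 Mb, numbered from the centromere, in the 4 co-expression comparisons. The first 9 windows lie over the dotted line at 0.25 in all 4 comparisons, and the dashed line marks the drop near 65 Mb.

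Gene by gene, the stretch in which the running median over 15 fitted genes was over 0.25 in all 4 comparisons ran from WHAMMP3, which starts at 22.66 Mb, to RASL12, which ends at 65.08 Mb, and held 258 fitted genes. No second stretch of this kind was found on the arm. The gain was read in each class of gene. Before the step the median was 0.62 over 236 protein-coding genes, 0.68 over 16 long non-coding RNA genes and 0.56 over 10 pseudogenes. After it the medians were 0.10 over 229, 0.20 over 30 and -0.00 over 23 genes. Before the step, genes split into 3 equal parts by mean count, from low to high, had medians of 0.57, 0.63 and 0.62. The 340 genes before the step that were too low for the fit took together 1.4 times the share of nuclear counts in co-expression libraries that they took in single-fusion libraries, and the 215 such genes after the step took 0.96 times.

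The most centromeric members lie between 25 and 34 Mb. UBE3A, a ubiquitin ligase gene of the imprinted region, had a mean difference of 0.33, OCA2, a melanosome transport gene, 0.70, and its neighbour HERC2, another ubiquitin ligase gene, 0.51. TJP1, which encodes the tight junction protein ZO-1, had 0.84 and lay above the single-fusion libraries in all 4 comparisons. OTUD7A, a deubiquitinase gene, had 0.35 and RYR3, a calcium release channel gene, 0.63. FMN1, a formin gene of actin assembly, stood apart with -0.10.

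The fitted members from 38 to 45 Mb all had positive means. SPRED1, an inhibitor of RAS signalling, had a mean difference of 0.59, and TYRO3, a receptor tyrosine kinase gene, 0.47. BUB1B, a gene of the mitotic checkpoint, had 0.88. SERF2, with 0.73, and SPG11, a lysosome-related gene mutated in spastic paraplegia, with 0.58, did not overlap with the single-fusion libraries in any of the 4 comparisons. EIF3J, a translation initiation factor gene, had 0.56, and B2M, the light chain of MHC class I, 1.00.

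Members from 47 to 54 Mb held both the largest and the smallest values. SEMA6D, a semaphorin gene, had a mean difference of 0.62 and DUT, the dUTPase that keeps uracil out of DNA, 0.82, and both lay above the single-fusion libraries in all 4 comparisons. FBN1, the fibrillin gene, had 0.56, the centrosome gene CEP152 0.57, the COP9 signalosome gene COPS2 0.66 and the deubiquitinase gene USP8 0.48. GABPB1, a subunit of the ETS-type factor GABP, had 0.82 and the transcript GABPB1-IT1 inside it 1.02. MYO5A, a myosin gene of vesicle transport, had 0.26. ONECUT1, a liver and pancreas transcription factor gene, had 0.84, and WDR72, a gene of enamel formation, -0.35.

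Members from 56 to 64 Mb again all had positive means. TCF12, a bHLH transcription factor gene, had a mean difference of 0.56, ALDH1A2, which makes retinoic acid, 0.20, and the membrane protease gene ADAM10 0.49. MINDY2, a deubiquitinase gene, had 0.84, the nuclear receptor gene RORA 0.47, the lipid transfer gene VPS13C 0.40 and the tropomyosin gene TPM1 0.64. HERC1, the last member before the step, had 0.75.

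The values fell at the next member. MAP2K1, the MAP kinase kinase MEK1, had a mean difference of -0.12. SMAD6, an inhibitor of BMP signals, and SMAD3, a transducer of TGF-beta signals, had -0.01 and 0.01. The pyruvate kinase gene PKM had 0.05, the netrin receptor gene NEO1 -0.10, the nuclear body gene PML -0.07 and the SRC inhibitor gene CSK 0.15.

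From 75 Mb on, SIN3A, the scaffold of a histone deacetylase complex, had 0.22, the iron regulator gene IREB2 0.16, the folate gene MTHFS 0.14, the synaptic scaffold gene HOMER2 0.06 and the kinase anchor gene AKAP13 0.16. The neurotrophin receptor gene NTRK3 had 0.25, the mitochondrial DNA polymerase gene POLG 0.08, the isocitrate dehydrogenase gene IDH2 0.02 and the RecQ helicase gene BLM 0.36, the largest value after the step. FURIN, a proprotein convertase gene, had -0.01, the chromatin remodeller gene CHD2 0.28, RGMA, a repulsive guidance gene, -0.00 and the C2 domain gene MCTP2 -0.15. The last 3 members, the nuclear receptor gene NR2F2, the growth factor receptor gene IGF1R and the transcription factor gene MEF2A, had 0.02, 0.07 and 0.00. Before the step the fitted members lay between -0.35 and 1.02, after it between -0.15 and 0.36, so single members of the 2 sides overlapped although the bulk of each did not.

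The members on either side of the step and those with the largest and smallest mean differences were read in every library, as CPM on TMM-scaled library sizes. HERC1 (GRCh38.p14, chromosome 15, 63608618 to 63833948) is a giant protein gene with ubiquitin ligase activity. Its co-expression libraries had 19.3, 18.6 and 19.8 CPM on day 3 and 24.4, 18.7 and 14.6 CPM on day 28. The MLL-AF4 libraries had 7.81, 14 and 11.6 CPM on day 3 and 11.5, 8.37 and 17 CPM on day 28. The AF4-MLL libraries had 12.1, 14.5 and 15.4 CPM on day 3 and 13.7, 10.5 and 9.07 CPM on day 28. The groups overlapped only between co-expression and MLL-AF4 on day 28, and the log2 differences were 0.81 ± 0.31 (SE) and 0.81 ± 0.26 against MLL-AF4 and 0.49 ± 0.27 and 0.89 ± 0.26 against AF4-MLL.

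MAP2K1 (66386912 to 66491544), the next member towards the telomere, had 27.3, 32.8 and 25.3 CPM in the co-expression libraries of day 3 and 24.4, 33 and 35.9 CPM in those of day 28. Libraries with MLL-AF4 alone had 40.2, 26.6 and 30.1 CPM on day 3 and 41.2, 28.5 and 26.9 CPM on day 28. Those with AF4-MLL alone had 37.8, 23.1 and 33.1 CPM on day 3 and 26, 34.3 and 25.1 CPM on day 28. All groups overlapped, and the 4 log2 differences lay between -0.23 ± 0.19 and 0.04 ± 0.19.

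B2M (44711517 to 44718145) had 20.7, 29.8 and 29.4 CPM in the co-expression libraries of day 3 and 25.9, 29.9 and 30.6 CPM in those of day 28. In MLL-AF4 libraries there were 19, 14 and 10.4 CPM on day 3 and 11.5, 10.6 and 17.9 CPM on day 28. In AF4-MLL libraries there were 12.6, 15.9 and 11.6 CPM on day 3 and 20.2, 9.94 and 13.3 CPM on day 28. Every co-expression library was above every single-fusion library, and the 4 log2 differences lay between 0.86 ± 0.27 and 1.12 ± 0.24.

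GABPB1-IT1 (50348936 to 50354879) is a non-coding transcript that lies within GABPB1 (50275389 to 50355198), so the reads of the pair cannot be told apart by strand. Its co-expression libraries had 49.3, 44.7 and 46.5 CPM on day 3 and 36.7, 34.2 and 46.5 CPM on day 28. The MLL-AF4 libraries had 26.8, 25.4 and 18.5 CPM on day 3 and 27.2, 20.6 and 23.3 CPM on day 28. The AF4-MLL libraries had 18.1, 23.1 and 17.7 CPM on day 3 and 17.6, 14.9 and 20.9 CPM on day 28. The co-expression libraries were above all others, with log2 differences between 0.69 ± 0.19 and 1.31 ± 0.20.

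BUB1B (40161069 to 40221123) had 8.67, 18.6 and 11.6 CPM in the co-expression libraries of day 3 and 13.6, 16.8 and 10.6 CPM in those of day 28. Libraries with MLL-AF4 alone had 5.58, 3.81 and 9.25 CPM on day 3 and 6.59, 5.58 and 8.06 CPM on day 28. Those with AF4-MLL alone had 4.93, 13 and 13.9 CPM on day 3 and 7.16, 6.08 and 8.37 CPM on day 28. On day 28 the co-expression libraries were above all others, while on day 3 they overlapped with both single-fusion groups. The log2 difference was 0.42 ± 0.33 against AF4-MLL on day 3 and between 0.99 ± 0.32 and 1.11 ± 0.34 in the other 3 comparisons.

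ONECUT1 (52755053 to 52790336) had 10.7, 5.22 and 8.2 CPM in the co-expression libraries of day 3 and 7.52, 4.98 and 5.32 CPM in those of day 28. In MLL-AF4 libraries there were 1.12, 1.27 and 2.31 CPM on day 3 and 6.59, 5.02 and 5.37 CPM on day 28. In AF4-MLL libraries there were 4.38, 8.68 and 7.71 CPM on day 3 and 3.26, 3.31 and 6.28 CPM on day 28. Its large mean came from the low MLL-AF4 libraries of day 3, where the log2 difference was 2.30 ± 0.64, and in the other 3 comparisons the groups overlapped. With 1 to 16 counts in a library, it was also among the thinnest of the members fitted.

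FMN1 (32765544 to 33194714) had 8, 13.4 and 10.9 CPM in the co-expression libraries of day 3 and 16.5, 13.1 and 16 CPM in those of day 28. The MLL-AF4 libraries had 12.3, 14 and 15 CPM on day 3 and 8.24, 12.3 and 16.1 CPM on day 28. The AF4-MLL libraries had 12.1, 17.4 and 17.7 CPM on day 3 and 15, 16.6 and 9.77 CPM on day 28. The groups overlapped in all 4 comparisons, although FMN1 lies well inside the plateau between OTUD7A and RYR3.

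WDR72 (53513741 to 53762878) had 4.67, 4.47 and 0.683 CPM in the co-expression libraries of day 3 and 2.35, 11.2 and 2.66 CPM in those of day 28. Libraries with MLL-AF4 alone had 5.58, 7.61 and 6.94 CPM on day 3 and 5.77, 4.46 and 6.27 CPM on day 28. Those with AF4-MLL alone had 5.48, 1.45 and 3.85 CPM on day 3 and 6.51, 6.63 and 4.88 CPM on day 28. On day 3 all 3 co-expression libraries lay below all 3 with MLL-AF4, with a log2 difference of -1.02 ± 0.56 (SE). In the other 3 comparisons the groups overlapped, and its counts ran from 1 to 18 in a library.

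MCTP2 (94231366 to 94483952) had 6, 8.2 and 4.1 CPM in the co-expression libraries of day 3 and 10.8, 6.23 and 12 CPM in those of day 28. In MLL-AF4 libraries there were 10, 1.27 and 4.62 CPM on day 3 and 14.8, 7.81 and 7.16 CPM on day 28. In AF4-MLL libraries there were 6.58, 5.79 and 8.48 CPM on day 3 and 7.81, 16.6 and 13.3 CPM on day 28. The groups overlapped in all 4 comparisons, with log2 differences between -0.44 ± 0.31 and 0.14 ± 0.50.

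**Figure D3:**
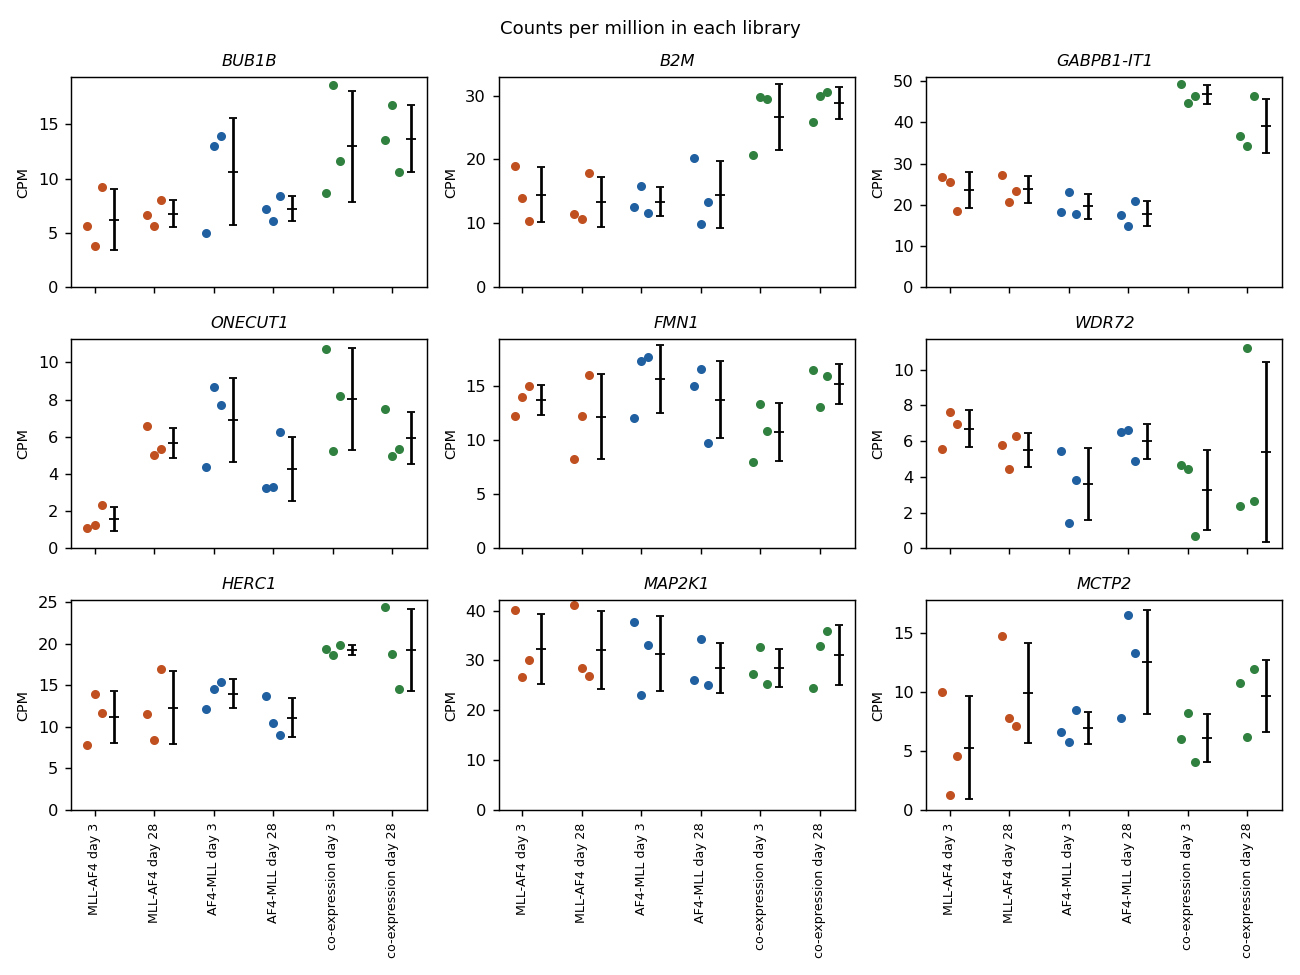
CPM of 9 members in each of the 18 libraries, as points, with the mean and SD of each group of 3 beside them. B2M and GABPB1-IT1 separate the co-expression libraries from all others, whereas MAP2K1, just after the step, and FMN1, inside the plateau, do not.

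Summed over members, the step could be read in every single library as a ratio of the counts of the 35 members before it to those of the 23 members after it. This ratio was 1.04 ± 0.03 (SD, n = 3) on day 3 and 1.03 ± 0.02 on day 28 in the co-expression setting. With MLL-AF4 alone it was 0.701 ± 0.027 and 0.767 ± 0.036, and with AF4-MLL alone 0.726 ± 0.028 and 0.695 ± 0.017. Co-expression libraries ranged from 1.005 to 1.068 and single-fusion libraries from 0.669 to 0.799, so the settings did not overlap. This gap is a description, since the members and the step were both chosen on comparisons between these settings. Over all genes of the arm the ratio was 0.693 ± 0.024 and 0.713 ± 0.011 in co-expression cells and between 0.471 ± 0.004 and 0.532 ± 0.011 in the single-fusion groups. The ratio was 1.34 to 1.49 times higher in co-expression cells, by members, and 1.34 to 1.47 times by all genes.

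**Figure D4:**
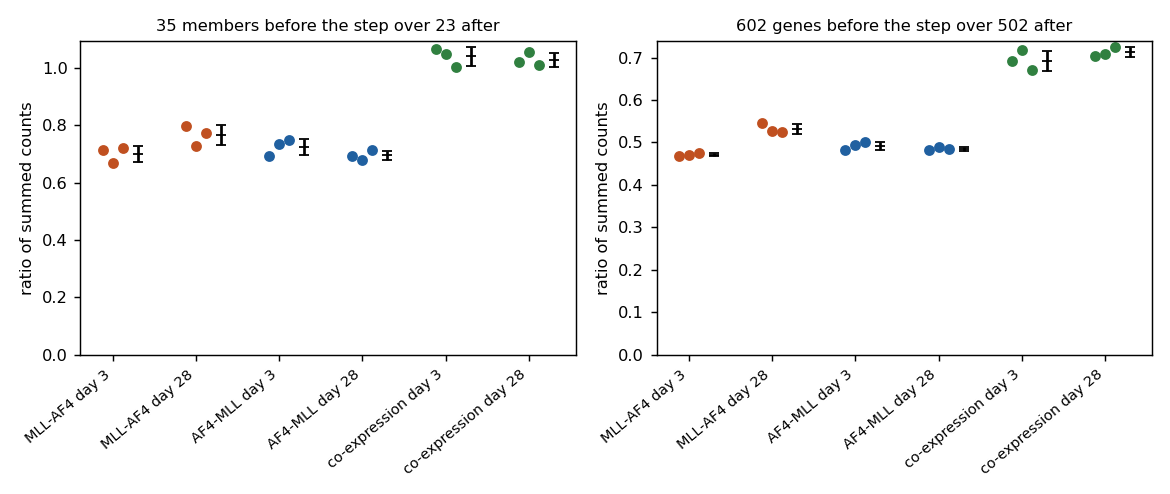
Ratio of summed counts before the step to those after it in each library, for the members (left) and for all chromosome 15 genes (right), with the mean and SD of each group of 3. The 6 co-expression libraries lie between 1.005 and 1.068 for the members, above the 12 single-fusion libraries. The step was placed on the same comparison of settings.

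As a further description, the share of nuclear counts was taken on either side of the step. Genes before the step took 1.59 ± 0.04% and 1.62 ± 0.01% for co-expression on day 3 and day 28, while the share was 0.993 ± 0.023% and 1.10 ± 0.01% with MLL-AF4 alone and 1.07 ± 0.02% and 1.05 ± 0.01% with AF4-MLL alone. This was 1.47 to 1.60 times the single-fusion share. Genes after the step took 2.29 ± 0.03% and 2.27 ± 0.02% in co-expression cells and between 2.07 ± 0.02% and 2.17 ± 0.01% in the other groups, which was 1.05 to 1.10 times. In summed shares, the small gain after the step was therefore present in all 4 comparisons as well, but it was not uniform. On day 3 and day 28 the members after the step had medians of 0.14 and 0.09 against MLL-AF4, and -0.03 and 0.01 against AF4-MLL. The window from 95 to 100 Mb had -0.08 and 0.05 against MLL-AF4, and -0.07 and -0.08 against AF4-MLL. All other windows from 65 Mb on were positive in all 4 comparisons. The last of them, from 100 to 105 Mb, had 0.16 on both days against MLL-AF4, and 0.21 and 0.16 against AF4-MLL.

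The levels themselves, per kb of gene length, were compared on either side. The median of protein-coding genes before the step was 0.169 to 0.219 CPM per kb in the single-fusion groups and 0.276 and 0.311 CPM per kb in co-expression cells on day 3 and day 28. After the step it was 0.459 to 0.544 CPM per kb over all groups, and on the other chromosomes 0.358 to 0.409. Per kb, the stretch before the step was below the median of the other chromosomes in every group. Not divided by length, its median was 9.14 to 10.2 CPM in the single-fusion groups, below the 12.9 to 13.6 CPM of the other chromosomes, but 14.9 and 15.3 CPM in co-expression cells, above their 12.7 and 13.2 CPM. Whether co-expression cells lay below or above the other chromosomes therefore depended on the scale. The median length was 35.3 kb before and 35.4 kb after the step. The single-fusion libraries are a side of the comparisons that chose the members, so this is a description.

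In each of the 12 single-fusion libraries, the best step in the level of protein-coding genes along the arm lay between CILP and PARP16, at 65.21 to 65.23 Mb, with genes after it higher by 1.02 to 1.29 on the log2(CPM + 1) scale. In all 6 co-expression libraries the genes after it began at 34.08 to 35.14 Mb instead. When the level was taken per kb of gene length, the genes after the step began at 65.08 to 65.38 Mb in 5 of the 12 single-fusion libraries, at 59.21 to 59.64 Mb in 6 and at 34.08 Mb in 1, so the place near 65 Mb by level alone depended on the scale.

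**Figure D5:**
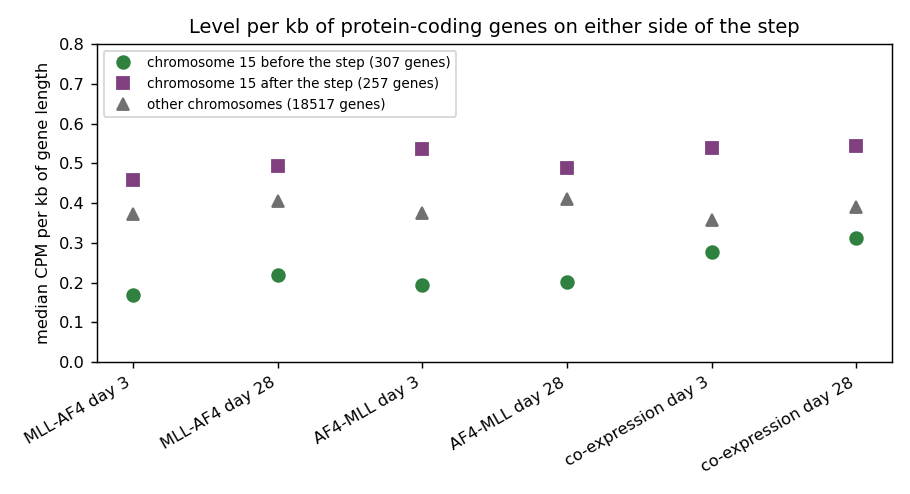
Median level of protein-coding genes, in CPM per kb of gene length, before and after the step on chromosome 15 and on the other chromosomes, for each group. Genes before the step lie at 0.169 to 0.219 in single-fusion groups and at 0.276 and 0.311 in co-expression cells.

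Other comparisons than the 4 that chose the members were tested as well, namely day 28 against day 3 within each setting, AF4-MLL against MLL-AF4, and the interaction of day with AF4-MLL against MLL-AF4. The last kinds hold no co-expression library, but their libraries were the comparison side of the choice. The comparison of days in co-expression cells holds libraries whose gain on both days was used in the choice. It is therefore given as a description, and no stability over time is read from it. The edgeR quasi-likelihood test called 0 of the 56 members in each of these 6 comparisons, and DESeq2 called 0 as well. From day 3 to day 28 edgeR called 0.606% of all genes in co-expression cells, 2.87% in MLL-AF4 cells and 0.606% in AF4-MLL cells. At an unadjusted p under 0.05 the members counted 3, 8 and 6 of 56, where the shares of all genes were 9.51%, 15.8% and 9.29%. Between AF4-MLL and MLL-AF4 it called 0.142% of all genes on day 3 and 0.0793% on day 28, and 6 and 3 members had an unadjusted p under 0.05, beside 9.55% and 8.26% of all genes. For the interaction it called 0.317% of all genes, and 10 members had an unadjusted p under 0.05, beside 9.75% of all genes.

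The interactions of day with co-expression are differences between the comparisons that chose the members, so they are given as a description. Against MLL-AF4 edgeR called 0 members, beside 0.232% of all genes, and 7 had an unadjusted p under 0.05, beside 9.73%. Against AF4-MLL it called 0 members, beside 0% of all genes, and 3 had an unadjusted p under 0.05, beside 5.05%. DESeq2 called 0 members in both, and nothing is read from these counts.

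The median change of the members from day 3 to day 28 was 0.08 in co-expression cells, 0.09 in MLL-AF4 cells and 0.05 in AF4-MLL cells on the log2 scale. In co-expression cells the smallest p belonged to VPS13C, which changed by 0.76 ± 0.24 (SE) with an edgeR adjusted p of 0.129. OCA2 changed by 0.83 ± 0.29 with an edgeR adjusted p of 0.234. These 2 genes were chosen after their values were seen, and neither passed the threshold. The lowest adjusted p of any member over time was that of RGMA in MLL-AF4 cells, with a change of -0.53 ± 0.17 and an edgeR adjusted p of 0.0636.

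Both co-expression days were used in the choice of the members, so their comparison is a description. The member ratio before to after the step differed by -0.01 between day 28 and day 3 in co-expression cells (exact two-sided permutation test, p = 0.8), and the libraries of the 2 days overlapped. In MLL-AF4 cells it was 0.07 higher on day 28 with no overlap, and in AF4-MLL cells 0.03 lower with overlap (exact permutation p = 0.1 and 0.2). Between AF4-MLL and MLL-AF4 it was 0.03 higher on day 3 and 0.07 lower on day 28 (exact permutation p = 0.4 and 0.1). With 3 libraries against 3 this test cannot go below 0.1, and adjusted over the 5 comparisons the lowest value was 0.25. The share of nuclear counts on all of chromosome 15 differed by 0.003 percentage points between the days in co-expression cells, where it was 3.88 ± 0.04% on day 3 and 3.88 ± 0.02% on day 28 (exact permutation p = 1).

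The share of counts on mitochondrial genes was 32.7 to 45.6% on day 3 and 63.6 to 68.5% on day 28, and its part in the changes with time was not tested. Scaled by total counts, mitochondrial counts included and with no TMM, the median of all genes fell by 1.07 on the log2 scale over time in co-expression cells, by 0.87 in MLL-AF4 cells and by 1.06 in AF4-MLL cells. On that scale edgeR called 51, 33 and 51 members, beside 88.1%, 64.9% and 87.7% of all genes.

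Windows have a smaller error, and the comparison of day 28 with day 3 in co-expression cells is again a description. In it edgeR called 1 of 18 chromosome 15 windows, beside 3.66% of all windows. It was the window from 20 to 25 Mb, with a change of 0.26 ± 0.08 and an edgeR adjusted p of 0.0365, and it was not called without replicate 2 or 3 of either day. In AF4-MLL cells edgeR called 0 windows, beside 6.66% of all windows, and 3 had an unadjusted p under 0.05, beside 20.3%. In MLL-AF4 cells 8 windows were higher on day 28, by 0.15 to 0.37, beside 40.6% of all windows, and 6 of the 8 lay before 65 Mb. Between the single fusions, 6 windows were higher with AF4-MLL on day 3, beside 31.6% of all windows, and 4 were lower with it on day 28, beside 23% (2 and 1 without replicate 1 and 3 of MLL-AF4 on day 28). The called differences on those days were 0.19 to 0.25 and 0.13 to 0.18 in size. The 4 windows of day 28 all lay before 65 Mb. By interaction, the change with time was lower with AF4-MLL than with MLL-AF4 in 9 windows, beside 34.4% of all windows. As a description only, the change was lower with co-expression than with MLL-AF4 in 6 windows, beside 29%, and edgeR called 0 between co-expression and AF4-MLL, beside 0.166%, with 1 at an unadjusted p under 0.05, beside 8.15%.

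Gene lists of the arm were read on both sides of the step. Of 9 genome maintenance genes all were fitted. The 6 before the step (BUB1B, KNL1, CEP152, DUT, TP53BP1 and FAN1) had a median mean difference of 0.70, and all 4 differences were above 0 in 5 of them. The kinetochore gene KNL1 had 0.99. The 3 after the step (BLM, POLG and FANCI) had a median of 0.08. Of the 9 genes, edgeR called 2, 1, 2 and 3 higher and 0 lower in the comparisons with MLL-AF4 on day 3 and day 28 and with AF4-MLL on day 3 and day 28, where it called 0.9, 0.413, 0.481 and 0.702% of all genes higher. These comparisons chose the members, 5 of which are in the list, so nothing is read from the counts.

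The other lists were read in the same way. The 2 growth factor receptor and RAS/MAPK genes before the step (TYRO3 and SPRED1) had a median of 0.53, and the 5 after it (NTRK3, IGF1R, MAP2K1, MAP2K5 and CSK) had 0.08. The 5 TGF-beta and BMP genes after the step (SMAD3, SMAD6, RGMA, NEO1 and FURIN) had a median of -0.01. Before the step FBN1 had 0.56 and GREM1, a BMP antagonist gene, 0.02, while THBS1 was not fitted. In these lists 0 genes were called in either direction in the 4 co-expression comparisons. There edgeR called 1.81, 1.17, 1.28 and 1.69% of all genes. Of 10 imprinted-region genes 2 were fitted, MKRN3 with 1.12 and UBE3A with 0.33. MKRN3 alone was called, higher than in MLL-AF4 on day 28, where edgeR called 0.413% of all genes higher. Of 34 genes of the GOLGA6 and GOLGA8 families 8 were fitted, with a median of 0.34 over 2 before and 0.38 over 6 after the step and 0 called. Their copies share sequence, so their counts are uncertain. For all these lists the comparisons are those that chose the members, so nothing is read from the calls.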

How the data were processed

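ATAC-seq was measured in 18 libraries of HEK293T cells, 6 groups of 3 by their labels, with replicates numbered BR1 to BR3 in the titles. The study's methods speak of 3 biological replicates in their section on RNA. The authors deposited whole-number counts of reads per gene, not normalized. The submitters' processing notes name bcl2fastq, Bowtie2, HTSeq and GRCh38, with no versions, and the region counted around a gene is not given in the sources used here. The study's methods tested the counts with DESeq2. Here edgeR 4.0.16 (R 4.3.3; quasi-likelihood test, TMM, filterByExpr with at least 10 counts, Benjamini-Hochberg over all genes, adjusted p under 0.05) was fitted to all 18 libraries with their 6 groups, and DESeq2 1.42.0 was an alternative. Scripts were tested on simulated data. Symbols were placed with RefSeq GRCh38.p14 (35447 matched). Windows of 5 Mb summed nuclear genes. The members and gene lists were chosen with earlier results of these data known, and a few list genes are not reported here and were left out of the list values. Members read in each library were the neighbours of the step and the 4 with the largest and 4 with the smallest mean difference. Totals of 442159 to 3539937 counts set the precision, and single members held few counts per library. Alternatives were other scalings, filters and window sizes, DESeq2, a replicate block and leaving out each library.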

Additional observations from a re-analysis of the deposited data

Results flagged for a closer look

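The change from day 3 to day 28 differed between AF4-MLL and MLL-AF4 cells in 9 chromosome 15 windows by edgeR's interaction test, with p-values adjusted over all 601 windows. The share of all windows called was 34.4%, so such differences were widespread over the genome.

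The difference of changes, AF4-MLL against MLL-AF4, was -0.31 from 30 to 35 Mb (edgeR adjusted p 0.002), -0.36 from 35 to 40 Mb (0.014), -0.25 from 40 to 45 Mb (4.8e-06), -0.22 from 50 to 55 Mb (0.039), -0.33 from 55 to 60 Mb (0.00042) and -0.32 from 60 to 65 Mb (7.6e-05). After 65 Mb it was -0.19 from 65 to 70 Mb (0.0018), -0.15 from 70 to 75 Mb (0.0042) and -0.20 from 75 to 80 Mb (0.00031). This test was added after the data had been seen.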

How the results depend on the processing

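Of 466 alternative values for 19 results, 429 kept their direction and side of the threshold or stayed near the reported value. Without TMM the median member differences were 0.50 and 0.23 against MLL-AF4 on day 3 and day 28, and 0.34 and 0.33 against AF4-MLL, and the members called over time were 51 in AF4-MLL, 33 in MLL-AF4 and 51 in co-expression cells. With no filter the day 3 medians were 0.47 and 0.40. Restricted to genes averaging 30 counts or more, the 4 medians, over the members kept from both sides of the step, were 0.28, 0.18, 0.23 and 0.12. In that fit 1 member was called over time in MLL-AF4 cells, where the main fit called 2.87% of all genes. With the main filter, the third of genes before the step with the highest counts had a median mean difference of 0.62. With 10 Mb windows, of which fewer cover the same stretch, 5 were over 0.25. Without the 1% of genes with the highest counts 1 window was called over time in AF4-MLL cells, and the change of the chromosome 15 share in co-expression cells was -0.0048 percentage points. As a share of all counts, mitochondrial counts included, that change was -0.98 percentage points. For each of these the cause was not tested.

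Leaving out 1 library at a time, the medians were 0.34 to 0.49 and 0.30 to 0.35 against MLL-AF4 and 0.22 to 0.37 and 0.34 to 0.39 against AF4-MLL, the 0.22 being without AF4-MLL day 3 replicate 1. Members called over time in MLL-AF4 cells were 0 to 2 (2 without day 28 replicate 2), and 0 to 0 in the other comparisons. The main fit called 2.87% of all genes over time in MLL-AF4 cells, and the shares in these fits were not taken. Windows called over time were 0 to 1 in AF4-MLL cells (1 without day 3 replicate 2), 7 to 10 in MLL-AF4 and 0 to 1 in co-expression cells, and between AF4-MLL and MLL-AF4 5 to 7 on day 3 and 1 to 4 on day 28. The share changed by -0.0176 to 0.0205, with -0.0176 and -0.0070 without co-expression day 3 or day 28 replicate 1. The windows leave out mitochondrial genes already, so that alternative gave no separate value for them.

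Same-numbered libraries did not deviate together (r of -0.0915 to 0.0374 over 45 pairs), so no pairing by number was seen. With few counts per gene this check could miss a weak pairing, and pairing was not excluded. With the replicate block the medians were 0.37, 0.28, 0.37 and 0.38, 0 members were called in the tested comparisons and 9 windows were over 0.25. The low counts of single members limit what can be called.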
